A study of Mus musculus with 8 samples.

Results

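Cdh9, Cdh10, Cdh13 and Pcdh18, 4 genes of the cadherin superfamily, were followed across sorted fractions of mouse embryonic stem (ES) cells. They are 4 of 8 superfamily genes whose symbols the study's supplementary list of differentially expressed genes pairs with an array probe, the others being Cdh3, Dsc2, Pcdh21 and Pcdhb22, and were chosen by name. Each had 1 probe, out of 1998 probes with a symbol used here and 42006 distinct probes on the array. All 4 probes were among the 29484 that were bright enough to be tested. The supplementary list was itself selected for differences among these fractions on these arrays, so a difference among fractions in a listed gene is not independent evidence.

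Cadherins are calcium-dependent adhesion proteins that carry tandem extracellular repeats and mostly bind like molecules on neighbouring cells. Classical cadherins span the membrane and are tied to actin through catenins, and Cdh9 and Cdh10 belong to their type II branch, best known from neural tissue. Cdh13, also called T-cadherin, lacks a cytoplasmic tail and is held in the membrane by a lipid anchor, and Pcdh18 is a non-clustered protocadherin of the delta group. In the early embryo, cells of the inner cell mass sort into epiblast and primitive endoderm (PrEn), a process in which adhesion and cell position change.

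The cells were HV ES cells, a 129/Ola line with a gene knock in that places the fluorescent protein Venus at the Hex locus, so that Venus reports a gene switched on early in endoderm. After 24 h of self-renewing culture with LIF they were sorted by Venus (V) and by the ES cell surface antigen SSEA-1 (S) into cells with SSEA-1 (V-S+ and V+S+) and cells without it (V-S- and V+S-), and total RNA of each fraction was labelled with Cy3 and hybridised against a Cy5-labelled universal mouse reference pooled from cultured cell lines. Each fraction had 2 samples, 1 from clone 5.1 and 1 from clone 16.1, each a line grown from 1 clone. All 4 fractions of a clone lay on 1 slide, so that clone and slide cannot be told apart.

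Levels are given as log2 ratios of sample to reference after background correction and loess normalization, the mean of 2 repeat scans of 1 array. A level of 0 means as much signal as in the reference, and log2 differences between samples do not depend on the reference where its signal is constant. Across samples the median Cy3 signal was between 2.36 and 2.87 times the local background, between 28313 and 29667 probes were well above background, no Cy3 spot was saturated, and repeat scans differed with an SD of 0.06 to 0.08 on the log2 scale. A call required an FDR of 0.05 in limma over all tested probes and a change of more than 1.5-fold. In a bulk sample, a larger share of cells that make a transcript and more transcript per cell cannot be told apart.

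The measurements rest on 1 probe of 60 bases per gene, shown here 5′ to 3′ as the scanner files list them, because the sequences bear on what each spot can detect. For Cdh9 and Cdh10 the capitals mark a stretch of 20 bases in which both probes are alike at 18 positions, and for Pcdh18 they mark a match, on the opposite strand, to the codon pattern GANNTNAANGANAAN of the calcium-binding motif that ends many cadherin repeats.
Cdh9: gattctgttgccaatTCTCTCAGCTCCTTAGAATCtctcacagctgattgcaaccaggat
Cdh10: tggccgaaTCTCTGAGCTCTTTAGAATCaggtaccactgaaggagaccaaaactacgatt
Cdh13: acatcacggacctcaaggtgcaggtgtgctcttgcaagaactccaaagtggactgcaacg
Pcdh18: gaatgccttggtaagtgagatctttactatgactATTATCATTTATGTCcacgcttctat
The stretch shared by Cdh9 and Cdh10 codes for part of the conserved cytoplasmic tail of type II cadherins. Over the best alignment without gaps the probes shared 35 of 53 bases, and whether either spot also bound the RNA of the other gene was not tested. The codon pattern occurred as listed in 0.0738% of the 42006 probes and on the opposite strand in 0.0405%. The files do not state which strand a probe represents, so the Pcdh18 values are those of this probe, and whether it read the messenger or RNA of the other strand was not tested. The files give no genome position for any probe.

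The 4 spots differed in how far they stood above background. Cy3 signals before correction ran from 72.9 to 166 for Cdh9, from 98.4 to 531 for Cdh10, from 214 to 861 for Cdh13 and from 204 to 2266 for Pcdh18 over 16 scans, against a local Cy3 background of 38 to 52. In Cy3 all 4 probes were well above background in every scan. Cdh9 was nearest to it, and its Cy5 signal was not well above background in 2 of 16 scans. The Cy5 signal, which comes from the same reference RNA on every array, lay between 61.6 and 74.4 for Cdh9. For Cdh10, averaged over the scans of a sample, it was between 88.2 and 91.7 on the arrays of V-S+ and between 118 and 137 on those of V+S-, the fraction in which its Cy3 signal was also highest. That shift was in the direction that lowers the Cdh10 ratio in V+S-, and its part in the result was not tested. Repeat scans of 1 array differed by at most 0.15 (log2) for Cdh9 and by at most 0.10 for the others.

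**Figure D1:**
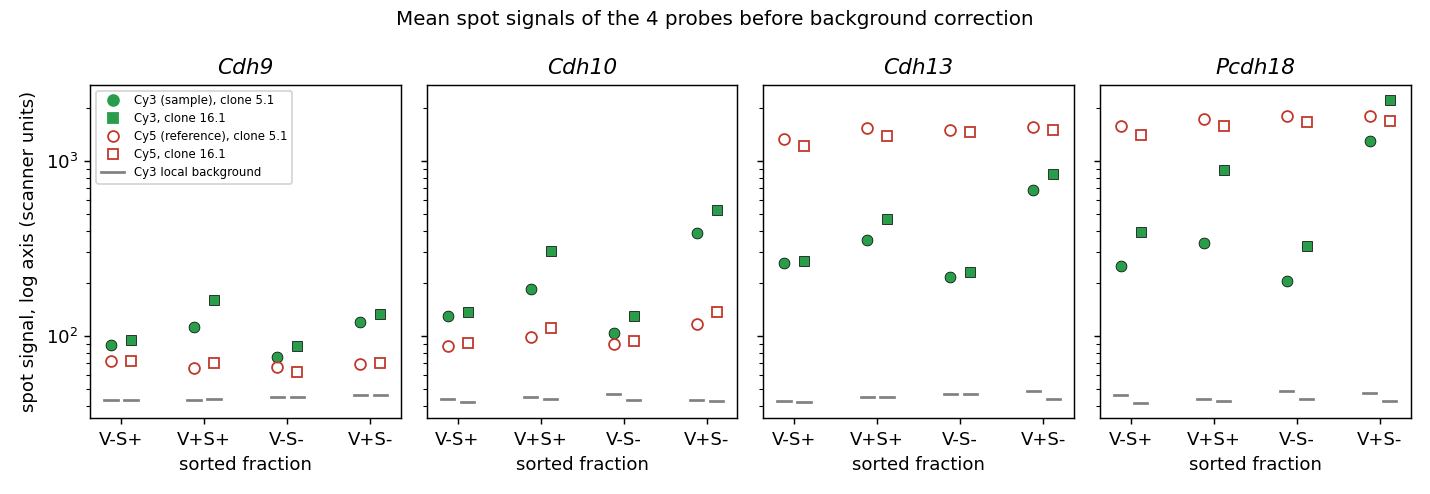
Mean spot signals of the 4 probes before background correction, by sorted fraction, on a log axis in scanner units. Filled symbols are Cy3 (sample), open symbols Cy5 (reference), circles clone 5.1, squares clone 16.1, each the mean of 2 scans, and grey bars the Cy3 local background. Cdh9 lies nearest to the background and Pcdh18 spans the widest Cy3 range.

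Pcdh18 showed the widest range of the 4. Its log2 ratio was -2.38 in V-S+ of clone 5.1 and -1.65 in V-S+ of clone 16.1, -2.59 and -1.89 in the V-S- cells of those clones, -1.96 and -0.65 for V+S+, and -0.34 and 0.53 for the V+S- samples. Both V+S- samples lay above the other 6, whereas the ranges of the other 3 fractions overlapped. Within a clone the order was the same in both, from V-S- as the lowest to V-S+, on to V+S+ and last to V+S-. Pcdh18 rose in V+S- against V-S+ by 2.11 ± 0.53 (log2, SE; 2 clones), or 4.31-fold, with an adjusted p of 0.0445 in limma. Clone 5.1 gave 4.12-fold and clone 16.1 gave 4.51-fold. It also rose against V-S-, by 2.34 ± 0.53 (5.05-fold, limma adjusted p = 0.034). The call against V-S+ held in 5 of 15 alternatives, the fewest of the calls on the members, while the difference itself stayed between 1.67 and 2.54. All these alternatives except the fit with clone as a block leave the difference between clones in the spread. With that block the rise was 2.11 ± 0.14 (limma adjusted p = 0.000333).

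Cdh13, the lipid-anchored member, separated the fractions without overlap. Its log2 ratio was -2.06 and -1.98 in V-S+ of clones 5.1 and 16.1, and -2.23 and -2.20 for the V-S- pair. It was -1.74 and -1.37 in V+S+, and -1.04 and -0.68 in the V+S- samples. The order from V-S- through V-S+ and V+S+ to V+S- was that of Pcdh18. Cdh13 rose in V+S- against V-S+ by 1.16 ± 0.16 (log2, SE), or 2.24-fold, with a limma adjusted p of 0.0154, and against V-S- by 1.36 ± 0.16, or 2.56-fold, with 0.0118. Clone 5.1 gave 2.03-fold against V-S+ and clone 16.1 2.46-fold. All 8 samples remained below the reference, a pool of cell lines, so the sign of the ratio depends on that pool as well as on the ES cells.

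Cdh10 was above the reference throughout. Its log2 ratio was 0.61 and 0.65 in V-S+ of clones 5.1 and 16.1, 0.39 and 0.74 among V-S- cells, 1.08 and 1.60 with both markers present (V+S+), and 1.79 and 2.04 in the V+S- samples. Both Venus-positive fractions lay above both Venus-negative ones, and both V-S+ values lay inside the range of V-S-. Cdh10 rose in V+S- against V-S+ by 1.28 ± 0.20 (log2, SE), or 2.44-fold, with a limma adjusted p of 0.0177, and against V-S- by 1.35 ± 0.20, or 2.55-fold, with 0.0154. Clone 5.1 gave 2.26-fold against V-S+ and clone 16.1 2.62-fold. With the Cy3 channel alone, which leaves out the reference, the difference was 1.47.

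Cdh9, the closest relative of Cdh10 on this list, was the dimmest and had a different order. Its log2 ratio was 0.35 and 0.39 in V-S+ of clones 5.1 and 16.1, 0.38 and 0.57 for the V-S- cells, 0.87 and 1.25 for their V+S+ counterparts, and 0.79 and 0.91 for V+S-. The highest sample was V+S+ in both clones, and the ranges of V+S+ and V+S- overlapped, as did those of V-S+ and V-S-. In V+S- against V-S+ the difference was 0.48 ± 0.14 (log2, SE), or 1.40-fold, with a limma adjusted p of 0.0584, and neither threshold was met. In V+S+ against V-S+ it was 0.69 ± 0.14, or 1.62-fold, with 0.16, and with clone as a block it passed (limma adjusted p = 0.00479). The size moved with settings that change the normalization together with the channel (Cy3 alone) or the background correction (processed signals of the scanner software). V+S+ against V-S+ was 0.52 with the Cy3 channel alone and 1.59 with the processed signals. V+S- against V-S+ was 0.30 and 1.18 under the same settings. With the background correction alone left out, V+S+ against V-S+ was 0.72 and V+S- against V-S+ was 0.52.

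**Figure D2:**
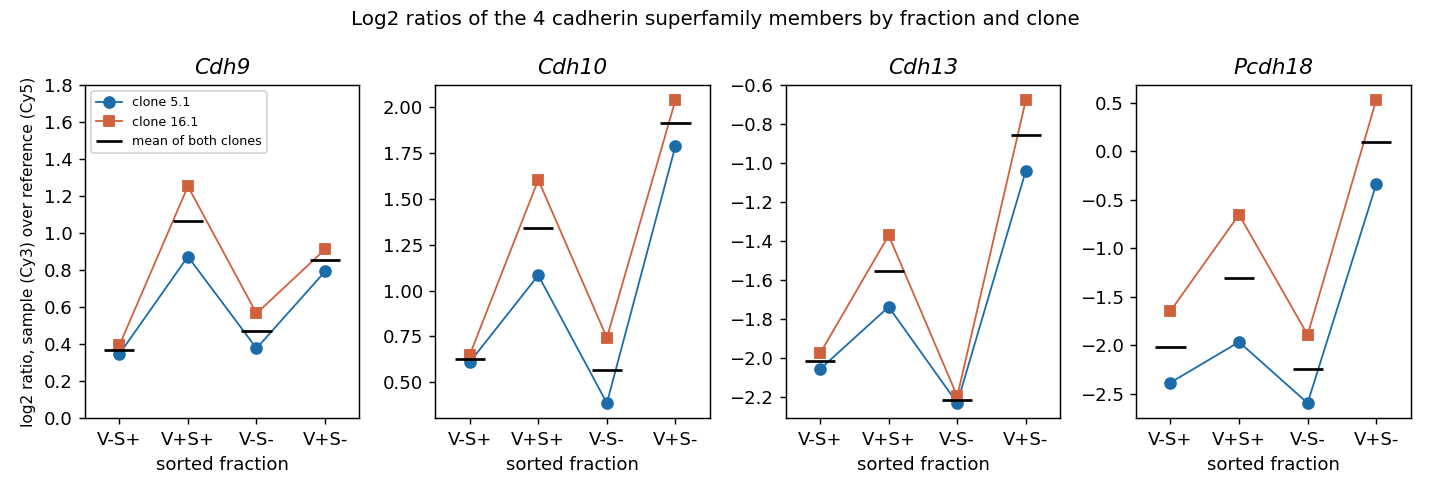
Log2 ratio of sample (Cy3) over reference (Cy5) for Cdh9, Cdh10, Cdh13 and Pcdh18 by sorted fraction. Circles are clone 5.1 and squares clone 16.1, thin lines join samples of a clone, bars mark the mean of both, and each panel has its own vertical scale. V+S- is highest in both clones for Cdh10, Cdh13 and Pcdh18, and V+S+ for Cdh9.

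Counted together in V+S- against V-S+, which differ in both markers, 3 of 4 members rose and none fell. Of all tested probes 5.73% were called higher, and of the 1998 probes with a symbol, which share the selection of the members, 48.1%. With clone as a block, 8.87% of tested probes were called higher and the same 3 members. Without V-S+ of clone 5.1, V-S+ of clone 16.1 or V+S- of clone 16.1 no member passed, and the array as a whole lost its calls, with 1, 2 and 0 of 29484 probes called in those fits. Without V+S- of clone 5.1 (1018 probes called higher) or without either V-S- sample (817 called higher), Cdh10 and Cdh13 passed and Pcdh18 did not. The differences of the 3 members kept their direction throughout, between 1.16 and 1.47 for Cdh10, 0.98 and 1.34 for Cdh13, and 1.67 and 2.54 for Pcdh18.

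**Figure D3:**
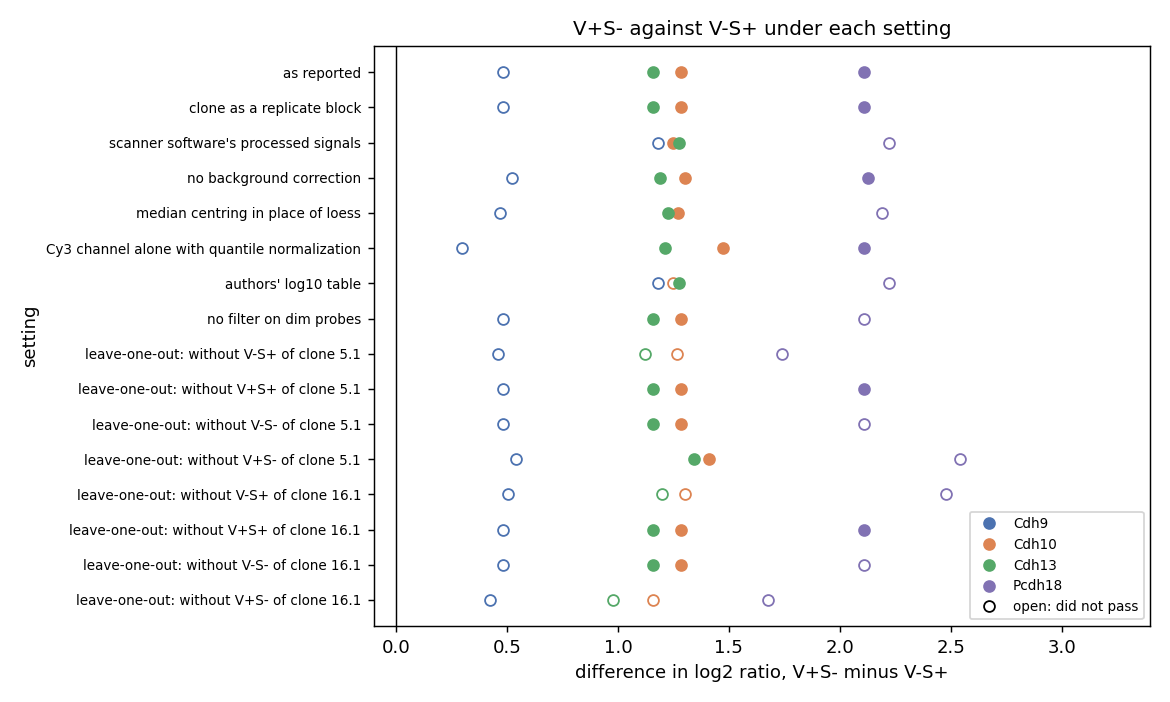
Difference in log2 ratio between V+S- and V-S+ for each of the 4 members under the reported setting and 15 alternatives. Filled points passed an FDR of 0.05 and 1.5-fold and open points did not. Every point is above 0, and Cdh9 runs from 0.30 with the Cy3 channel alone to 1.18 with the scanner software's processed signals.

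In V+S- against V-S-, which compares Venus within cells sorted without SSEA-1, the same 3 members rose. Of all tested probes 6.3% were called higher (8.96% with clone as a block). Cdh9 differed by 0.38 ± 0.14 (log2, SE; limma adjusted p = 0.0979). Leaving out either V-S- sample, or V+S- of clone 16.1, ended all 3 calls and every other call on the array (0 of 29484 probes). Leaving out either V-S+ sample (1079 probes called higher) or V+S- of clone 5.1 (1341) ended that of Pcdh18. In V-S- against V-S+, which compares SSEA-1 within Venus-negative cells, no member passed in limma, and 0% of tested probes were called with or without the block. There, 834 probes had an unadjusted p below 0.05, none of them a member. The differences were -0.23 ± 0.53 for Pcdh18, -0.20 ± 0.16 for Cdh13, -0.06 ± 0.20 for Cdh10 and 0.10 ± 0.14 for Cdh9.

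The V+S+ fraction holds cells sorted as positive for both the reporter and SSEA-1. In both clones all 4 members were higher there than in V-S+, by 0.42 and 0.99 for Pcdh18, 0.32 and 0.61 for Cdh13, 0.47 and 0.95 for Cdh10, and 0.53 and 0.86 for Cdh9, in clones 5.1 and 16.1 respectively. For Cdh9, Cdh10 and Cdh13 both V+S+ samples lay above both V-S+ samples, which held for 27.6% of all tested probes. No member passed in limma with fraction alone, 0% of tested probes were called higher, and 5514 probes, among them Cdh9, Cdh10 and Cdh13, had an unadjusted p below 0.05. With clone as a block, 3.87% of tested probes were called higher, and 3 members rose, Cdh9 (adjusted p = 0.00479), Cdh10 (0.00812) and Pcdh18 (0.0182). Cdh13 had an adjusted p of 0.0213 in that fit and missed the fold threshold at 1.38-fold. The mean difference of Pcdh18 was 0.71 ± 0.53 (log2, SE), and 0.05 without V+S+ of clone 16.1 or 1.36 without that of clone 5.1. These fits without a sample have no term for clone and set V+S+ of 1 clone against V-S+ of both. Their values therefore hold the difference between clones, unlike the 0.42 and 0.99 within clones. Beside the members' values, in the same fit with the block, 5 of 8 named pluripotency markers fell (median log2 difference -0.74), as did 515 of 29484 tested probes. In that fit 2 of 3 neuroectoderm markers, 1 of 11 PrEn markers (median 0.40) and 0 of 4 mesoderm and fibroblast markers (median 0.48) rose. The share among all named probes, which were selected on these arrays, was not counted for this fit. The mean log2 ratio of the pluripotency markers was between 1.25 and 1.29 for V-S+ and between 0.32 and 0.81 for V+S+. The median log2 difference of the neuroectoderm markers was 0.82, and the part of any of these cell types in the members' values was not tested.

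The position of V+S+ was expressed as a share of the log2 difference between V-S+ and V+S- of the same clone. It was 20.5% in clone 5.1 and 45.7% in clone 16.1 for Pcdh18, 31.4% and 46.6% for Cdh13, and 40.2% and 68.7% for Cdh10. For Cdh9 the share was 118% and 166%, that is, V+S+ lay beyond V+S-. In clone 5.1 that gap was smaller than the largest difference between repeat scans of this probe. In V+S- against V+S+ the step was 1.40 ± 0.53 (log2, SE) for Pcdh18, 0.70 ± 0.16 for Cdh13, 0.57 ± 0.20 for Cdh10 and -0.21 ± 0.14 for Cdh9. Without V+S+ of clone 5.1 it was 0.75 for Pcdh18 and 0.31 for Cdh10, and without V+S+ of clone 16.1 it was 2.06 and 0.83. Those fits have no term for clone. Within clones 5.1 and 16.1 the step was 1.62 and 1.18 for Pcdh18, and 0.71 and 0.43 for Cdh10. Over all samples left out in turn Cdh13 ran from 0.51 to 0.88 and Cdh9 from -0.40 to -0.02. No member passed with fraction alone in limma (0% of tested probes called higher, 4429 at an unadjusted p below 0.05). With clone as a block Pcdh18 (adjusted p = 0.00768) and Cdh13 (0.0131) rose, against 1.75% of tested probes, and Cdh10, at 1.48-fold, missed the fold threshold. In that fit 3 of 4 named mesoderm and fibroblast markers (median 1.49), 6 of 11 PrEn markers (median 0.72) and 1 of 3 neuroectoderm markers rose. Of 8 pluripotency markers 2 fell, as did 104 of 29484 tested probes. The part of these cell types in the members' values was not tested. Both V+S- samples were above all other samples for 3 of 4 members and for 14.8% of tested probes.

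Whether the Venus difference depended on SSEA-1 was asked by the interaction, the V+S- minus V-S- difference less the V+S+ minus V-S+ difference. It was 1.63 ± 0.75 (log2, SE) for Pcdh18, 0.89 ± 0.22 for Cdh13, 0.63 ± 0.28 for Cdh10 and -0.31 ± 0.19 for Cdh9. Within clones 5.1 and 16.1 it was 1.84 and 1.42 for Pcdh18, 0.87 and 0.91 for Cdh13, 0.93 and 0.34 for Cdh10, and -0.11 and -0.51 for Cdh9. With each sample left out in turn, Pcdh18 ran from 0.97 (without V+S+ of clone 5.1) to 2.29 (without V+S+ of clone 16.1). Cdh13 ran from 0.71 to 1.08, Cdh10 from 0.37 to 0.89 and Cdh9 from -0.50 to -0.12. Those fits have no term for clone, so their ranges hold the difference between clones, unlike the values within clones. With fraction alone no member passed in limma (0% of tested probes called higher, 2340 with an unadjusted p below 0.05, Cdh13 among them at 0.00629). With clone as a block Pcdh18 (adjusted p = 0.0357) and Cdh13 (0.0485) passed, against 0.899% of tested probes called higher, and Cdh10 (0.104) and Cdh9 (0.226) did not. In that fit 3 of 4 named mesoderm and fibroblast markers (median 1.44), 2 of 11 PrEn markers (median 0.65) and 0 of 3 neuroectoderm markers were called higher. Of 8 pluripotency markers 1 was called lower, as were 15 of 29484 tested probes. Median centring in place of loess moved the median of all tested probes to 0.20 in this contrast, to 0.13 in V+S- against V-S- and to -0.12 in V-S- against V-S+. Over the other ways of processing, with all samples kept, the interaction of Pcdh18 ran from 1.61 to 1.89 and that of Cdh13 from 0.85 to 1.14. For Cdh10 it ran from 0.51 to 0.83, and for Cdh9 from -0.95 to -0.13. The part of normalization in the interactions was not tested.

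**Figure D4:**
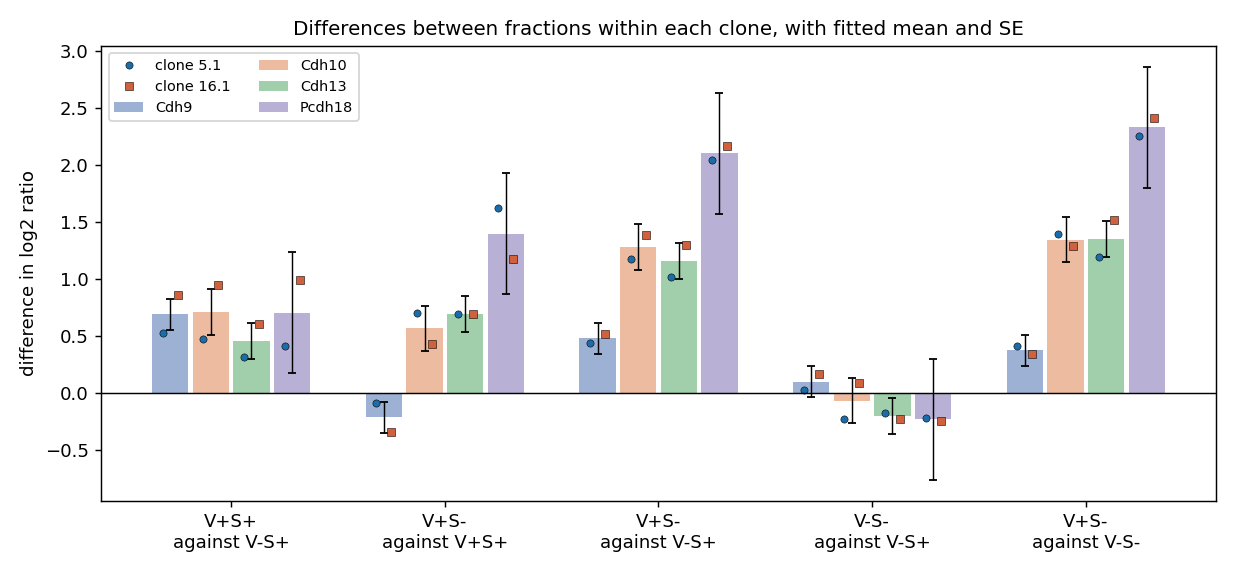
Differences in log2 ratio between pairs of fractions for the 4 members. Bars give the fitted mean with its SE from the model with fraction alone, circles clone 5.1 and squares clone 16.1. In V-S- against V-S+ all fitted means lie between -0.23 and 0.10, while V+S- exceeds V-S+ and V-S- for all 4.

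In one joint test for a difference anywhere among the fractions (limma's moderated F statistic at an FDR of 0.05) Cdh10 (adjusted p = 0.0361) and Cdh13 (0.0286) passed, against 7.38% of tested probes, and Cdh9 (0.0588) and Pcdh18 (0.0861) did not. With clone as a block all 4 passed, as did 43.5% of tested probes. When a single sample other than V+S+ was left out, in either clone, 0 of 29484 probes passed, the members included, and without V+S+ of clone 5.1 all 4 members and 4498 probes passed.

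The clones differed most in Pcdh18. It was higher in clone 16.1 than in clone 5.1 in every fraction, by 0.74 in V-S+ and 0.70 among the V-S- cells, and by 1.31 in V+S+ and 0.87 among the V+S- cells (log2). The mean difference was 0.91 ± 0.10 (log2, SE; 4 fractions), or 1.87-fold, with a limma adjusted p of 0.0029, and the call held in all 14 alternatives. It was the 1 member of 4 called, against 1.39% of tested probes called higher in clone 16.1. Cdh10 (0.29 ± 0.08, adjusted p = 0.0346) passed the FDR and not the fold, and Cdh13 (0.21 ± 0.07, adjusted p = 0.0672) and Cdh9 (0.18 ± 0.06, adjusted p = 0.0655) passed neither. All 4 members were higher in clone 16.1 in each of the 4 fractions, as were 27.7% of tested probes. Whether the clone or the slide carried the difference cannot be told apart.

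Over the 8 samples the log2 ratios of Cdh10, Cdh13 and Pcdh18 correlated with each other with r between 0.96 and 0.98, and those of Cdh9 with r = 0.81 with Cdh10, 0.70 with Cdh13 and 0.69 with Pcdh18. These values describe points that share arrays, clones and a sort, and carry no test. Among the 1997 other named probes, those most like Cdh10 over the 8 samples were Mcoln3, an endolysosomal cation channel (r = 0.997), Kcna6, a voltage-gated potassium channel (0.996), and Ppnr (0.996). Most like Cdh13 were Fkbp7 (0.999), Elk3, an ETS family transcription factor (0.999), and Tnfsf9, a ligand of the TNF family (0.997). Most like Pcdh18 were Nts, the precursor of neurotensin (0.999), Sdc2, a heparan sulphate proteoglycan (0.999), and Col4a5, a basement membrane collagen chain (0.998). Most like Cdh9 were Baz1a, a chromatin remodelling subunit (0.987), Cebpd, a bZIP transcription factor (0.984), and Car4, a membrane-anchored carbonic anhydrase (0.982). No gene was shared between these lists.

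Of 89 cadherin superfamily symbols searched for, 8 had a named probe, the 4 members and 4 others. In V+S- against V-S+ 4 of 8 rose, 1 fell and 3 did not pass, with a median difference of 0.81. Over the 1998 probes with a symbol, which were selected in the same way, 48.1% were called higher and 11.6% lower, with a median of 0.67, so the count higher was near the share of named probes. The median over all tested probes was 0.01. Dsc2, a desmosomal cadherin, had log2 ratios of 1.10 and 1.17 in V-S+ of clones 5.1 and 16.1, 0.51 and 0.86 in the V-S- pair, 1.45 and 2.03 for V+S+ cells, and 2.05 and 2.29 for those that were V+S-. It rose by 1.04 ± 0.21 (log2, SE), or 2.05-fold, with a limma adjusted p of 0.0289, and was the other gene of the family called higher. The call held in 7 of 15 alternatives, with an adjusted p of up to 0.224, while the difference stayed between 0.87 and 1.16.

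Pcdh21, a cadherin-related gene known from photoreceptors, went the other way. Its log2 ratio was 1.04 and 1.05 in V-S+, 0.85 and 0.92 in V-S- cells, 0.62 and 0.35 for V+S+ cells, and 0.41 and 0.11 for the V+S- pair, again in clones 5.1 and 16.1. It fell by 0.79 ± 0.13 (log2, SE; limma adjusted p = 0.0188), against 1.28% of tested probes called lower, and the call held in 11 of 15 alternatives. Cdh3, or P-cadherin, a classical type I cadherin of epithelia, differed by -0.46 ± 0.14 (adjusted p = 0.0728), with the higher values in both Venus-negative fractions. Pcdhb22, a clustered protocadherin, differed by 0.59 ± 0.19 (adjusted p = 0.0826), and passed with clone as a block (0.00242). Other classical cadherins, Cdh1 and Cdh2 among them, were not analysed here.

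**Figure D5:**
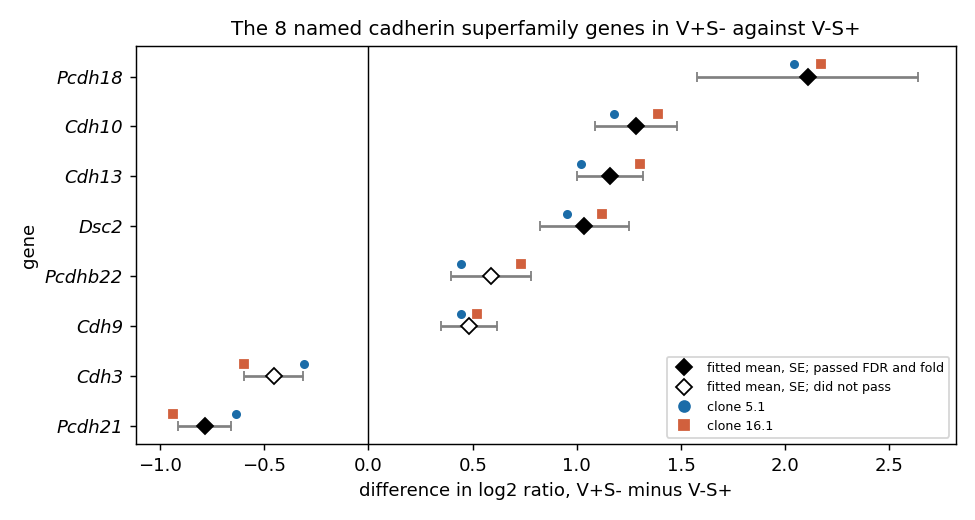
Difference in log2 ratio between V+S- and V-S+ for the 8 named cadherin superfamily genes. Diamonds give the fitted mean with its SE, filled where the FDR and fold thresholds were passed, and small circles and squares the difference within clones 5.1 and 16.1. Pcdh18, Cdh10, Cdh13 and Dsc2 lie above 1 and Pcdh21 and Cdh3 below 0.

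Genes that work with cadherins were counted from lists of 33 catenins and junction partners, 12 repressors of Cdh1 and 27 other junction proteins. Like the members, the genes that could be named had been selected on these arrays, and their counts stand beside the 48.1% of named probes (5.73% of all tested) called higher and the 11.6% (1.28%) called lower. Of 9 named catenins and junction partners 8 rose in V+S- against V-S+ and 1 fell (median 1.01). The largest rises were in Mmp14, a membrane-bound metalloproteinase (1.62 ± 0.32, limma adjusted p = 0.0275), and Dsp, the desmosomal plaque protein desmoplakin (1.51 ± 0.25, adjusted p = 0.0199), and Lima1, an actin-bundling protein, fell by 0.83 ± 0.18 (adjusted p = 0.0326). None of the catenins themselves had a named probe. Both named repressors rose, Twist2 by 1.44 ± 0.32 (adjusted p = 0.0331) and Snai1 by 1.01 ± 0.12 (adjusted p = 0.013). Of 11 other junction proteins 4 rose and 7 did not pass (median 0.75), or 6 rose and 2 fell with clone as a block, among the first the tight junction proteins Cxadr (1.02 ± 0.24, adjusted p = 0.0388) and Cldn4 (0.98 ± 0.20, adjusted p = 0.029). The connexins Gjb1 (-0.72 ± 0.20, adjusted p = 0.0537) and Gja4 (-0.59 ± 0.16, adjusted p = 0.0507) did not pass with fraction alone. Both passed with clone as a block (limma adjusted p = 0.0164 and 0.00451).

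Named markers of several cell types were counted against the same shares, 48.1% of named probes called higher and 11.6% lower (5.73% and 1.28% of all tested probes). Of 11 named PrEn markers 10 rose in V+S- against V-S+, with Sox7 (1.77 ± 0.24, limma adjusted p = 0.0154) and Foxq1 (1.47 ± 0.33, adjusted p = 0.0345) highest, and their mean log2 ratio was between -1.67 and -1.44 in V-S+ and between -0.47 and -0.37 in V+S-. Of 8 pluripotency markers 5 fell, led by Dppa3 (-1.75 ± 0.24, adjusted p = 0.0153) and Spic (-1.20 ± 0.16, adjusted p = 0.0155). With clone as a block 7 of the 8 fell, as did 891 of 29484 tested probes. Of 4 named mesoderm and fibroblast markers 3 rose, Vim (2.14 ± 0.32, adjusted p = 0.0172) and Postn (1.99 ± 0.30, adjusted p = 0.0171) most, and the mean log2 ratio of the 4 was between -3.13 and -2.79 for V-S+ samples, -2.92 and -2.47 with V+S+, -3.05 and -2.80 among V-S- samples, and -1.84 and -1.26 among V+S- samples. Of 3 named neuroectoderm markers Fabp7 (2.14 ± 0.35, adjusted p = 0.0188) and Pou3f1 (1.11 ± 0.26, adjusted p = 0.0377) rose and Hes5 fell by 0.81 ± 0.19 (adjusted p = 0.0398). The part of any of these cell types in the cadherin values was not tested.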

How the data were processed

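Total RNA of 8 samples, 4 sorted fractions from each of 2 clones, was measured on 2-colour arrays of 60-base probes, Cy3 for the sample and Cy5 for the reference, always in that dye orientation. For each sample the authors deposited 2 scanner files, 16 in all, that hold the intensity of 43451 spots in each channel, read with Agilent's Feature Extraction software (named in the submitters' notes, with no version). They also deposited a table of normalized log10 values, with column medians between 2.31 and 2.34. Within a probe its differences between samples matched the scanner software's Cy3 over Cy5 ratio, which settles its scale and direction, and the level at which each probe was centred stays unknown. The direction of every ratio is Cy3 over Cy5.

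From the mean and local background intensity, spots were corrected by normexp with an offset of 50 and normalized by loess within each scan in limma 3.58.1 (R 4.3.3), leaving out outlier spots (median 4 per file). Spots of the 7 probes present more than once, and then the scans of a sample, were averaged. A probe was tested if it was well above background in Cy3 in every scan of at least 1 fraction, which kept 29484 of 42006. Fractions were compared with lmFit and eBayes, without a block for clone, and p-values were adjusted by Benjamini and Hochberg over all tested probes. Clones were compared with fraction in the model. A call needed an FDR of 0.05 and 1.5-fold. The fits were tested on simulated data. Tables were handled in Python 3.11.15 with pandas 2.3.3.

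All fractions of a clone come from 1 cell line, so the clone number pairs the samples. Deviations from the fraction means correlated across probes, r running from 0.59 to 0.81 in the 6 fraction pairs, and each fit was also made with clone as a block. The replicates are 2 clones. Without the block p-values measure the spread between them, with the block the spread that remains once the mean clone difference is removed, and in the comparison of clones, which has 1 line per clone, the spread of that difference over the 4 fractions. The number of arrays limits the precision.

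Symbols came from the study's supplementary list, of which 1998 probes could be used here, and its fold changes and p-values were not used. The genes named are the 4 members, all other named cadherin superfamily genes, the 2 largest rises and falls in V+S- against V-S+ of each other list, and the 3 probes most correlated with each member. The members and lists were chosen with earlier results of these data known. Alternatives were other background corrections and normalizations, the Cy3 channel alone, no filter on dim probes, the deposited log10 table, the block and leaving out each sample.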

Additional observations from a re-analysis of the deposited data

Results flagged for a closer look

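With the reported processing, the difference between fractions without and with SSEA-1 had opposite signs for 5 genes, in both clones. The signs differed between Venus-negative cells (V-S- against V-S+) and Venus-positive cells (V+S- against V+S+). The difference of the differences was tested in limma as the interaction, and without clone as a block it missed the FDR of 0.05 for all 5. For Pcdh18 the log2 differences in clones 5.1 and 16.1 were -0.21 and -0.24 in Venus-negative cells and 1.62 and 1.18 in Venus-positive cells, with an interaction of 1.63 (adjusted p = 0.653, and 0.0357 with the block). For Cdh13 they were -0.17 and -0.22 against 0.70 and 0.69, with an interaction of 0.89 (adjusted p = 0.571, and 0.0485 with the block). Dsc2 had -0.59 and -0.31 against 0.61 and 0.26, with an interaction of 0.89 (adjusted p = 0.597, and 0.0617 with the block).

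The other two genes had the opposite signs. Cdh9 had 0.03 and 0.17 in Venus-negative cells and -0.08 and -0.34 in Venus-positive cells, with an interaction of -0.31 (adjusted p = 0.748, and 0.226 with the block). The values of 0.03 and -0.08 were smaller than the 0.15 by which repeat scans of this probe differed at most. With the Cy3 channel alone the mean in Venus-negative cells was -0.10. In Venus-positive cells it was negative under every processing (-0.41 to -0.19), so with Cy3 alone the signs were not opposite. Cdh3 had 0.08 and 0.02 against -0.03 and -0.11, with an interaction of -0.12 (adjusted p = 0.955, and 0.641 with the block). The signs of Cdh3 turned with the processing. Its mean difference ran from -0.15 to 0.20 in V-S- against V-S+ and from -0.11 to 0.03 in V+S- against V+S+. Its interaction ran from -0.27 to 0.18.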

How the results depend on the processing

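The number of the 4 members called moved with the block, with the source of the values and with single samples left out. With clone as a replicate block it went from 0 to 3 in V+S+ against V-S+, from 0 to 2 in V+S- against V+S+ and in the interaction, and from 2 to 4 in the test of any difference. The block ended no call. With the scanner software's processed signals, and with the deposited log10 table, 0 members passed the test of any difference, where 85 of 29484 and 0 of 25164 probes passed, and with the latter only Cdh13 (1 member) passed in V+S- against V-S+, beside 306 probes called higher. Leaving out 1 sample at a time gave 0 to 4 members for any difference, 0 to 3 in V+S- against V-S+ and 0 to 3 in V+S- against V-S-. The calls of the whole array ran with them, from 0 to 4498, 0 to 2644 and 0 to 2841 probes.

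The sign turned in V-S- against V-S+, where no member had passed: Cdh9 was -0.10 with the Cy3 channel alone, Cdh10 was 0.11 without V-S- of clone 5.1, and Pcdh18 was 0.12 without V-S- of clone 5.1 and 0.14 without V-S+ of clone 16.1. Over single samples left out, Cdh10 ran from -0.24 to 0.11 and Pcdh18 from -0.60 to 0.14. The leave-one-out fits have no term for clone, so a fraction left with 1 clone was compared with both clones of the other. Within clones 5.1 and 16.1 Pcdh18 was lower in V-S- in both, at -0.21 and -0.24. Cdh10 was -0.22 and 0.09. The cause of the sign changes was not tested. Of the other values of single genes under alternatives, 415 kept direction and side of the threshold, 46 lost a call and 11 gained one. Precision is limited by 2 clones and 1 probe per gene: Pcdh18 had the largest SE between clones, and Cdh9 lay nearest to background.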
